A study of Mus musculus with 2 samples.

Results

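The Hand, Tfap2 and Onecut genes encode DNA-binding regulators of early development, and the enrichment peaks around 7 of them are described here in a pair of sequencing libraries. Both came from E14 embryonic stem cells, a pluripotent mouse line. One culture had been transfected with shDnmt3L, a hairpin RNA against Dnmt3L, and the other with shGFP, a control hairpin against a jellyfish protein that mouse cells do not carry. Dnmt3L is a partner of the de novo DNA methyltransferases that has no catalytic activity of its own. Each group was 1 library, so no value below has a replicate error and no test was possible. The level of Dnmt3L was not measured by this assay, so the hairpin's effect on its target was not analysed here.

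The 7 intervals, of 110 to 160 kb and 960 kb in all, lie around Hand1, Hand2, Tfap2a, Tfap2b, Tfap2c, Onecut1 and Onecut2. They were chosen by their peaks in these same 2 lists, so peak number, width, sharing and score rank are given as descriptions of the members and support nothing by themselves. A peak that touched an interval was a member, which gave 48 of the 45579 shDnmt3L peaks and 40 of the 55292 shGFP peaks.

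The labels name the samples as MeDIP, an antibody capture of 5-methylcytosine, whereas the labels' protocol describes a glucosylation-based capture of 5-hydroxymethylcytosine. For this reason no modification is named and the peaks are referred to only by their enrichment. In mammals both modifications are found mainly at CpG dinucleotides. How deeply each library was read is unknown, and deeper reading can change how many peaks are called and how wide they are.

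Hand1 and Hand2 are basic helix-loop-helix factors of the heart, the limb and the neural crest, and Hand1 also acts in the trophoblast of the placenta. Tfap2a, Tfap2b and Tfap2c encode AP-2 factors, which work in the neural crest, the surface ectoderm and the kidney. Tfap2c in addition serves the trophoblast and the primordial germ cells. Onecut1, also known as Hnf6, and Onecut2 are cut-homeodomain factors of the liver and the pancreas. In embryonic stem cells most regulators of this kind are silent, and many lie in CpG-rich stretches held by Polycomb proteins.

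The CpG content of the start regions is shown here because it differs widely among the genes, from Onecut1 and Hand2, with the widest shDnmt3L peaks, to Tfap2b, with the narrowest. The sequences run from 250 bases before to 50 after the annotated start and are RefSeq's, on GRCm38.p6. The peaks are on mm9, so the place of each start relative to the peaks was not determined. Each CpG is in capitals. The Onecut1 sequence is chr9:74861671-74861970 on the plus strand, that of Hand2 is chr8:57320733-57321032 on the plus strand, and that of Tfap2b is chr1:19211804-19212103 on the plus strand.
Onecut1: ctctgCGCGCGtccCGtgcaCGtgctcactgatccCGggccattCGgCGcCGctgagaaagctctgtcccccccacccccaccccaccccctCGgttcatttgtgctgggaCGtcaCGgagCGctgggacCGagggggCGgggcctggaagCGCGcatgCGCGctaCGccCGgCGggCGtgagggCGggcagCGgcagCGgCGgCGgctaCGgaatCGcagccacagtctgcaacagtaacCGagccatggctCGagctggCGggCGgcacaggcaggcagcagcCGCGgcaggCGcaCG
Hand2: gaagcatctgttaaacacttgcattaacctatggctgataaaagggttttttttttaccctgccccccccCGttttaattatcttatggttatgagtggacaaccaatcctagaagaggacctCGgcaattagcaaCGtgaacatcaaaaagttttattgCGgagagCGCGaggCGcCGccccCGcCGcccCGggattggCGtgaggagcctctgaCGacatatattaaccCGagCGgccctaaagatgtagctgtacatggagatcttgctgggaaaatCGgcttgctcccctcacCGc
Tfap2b: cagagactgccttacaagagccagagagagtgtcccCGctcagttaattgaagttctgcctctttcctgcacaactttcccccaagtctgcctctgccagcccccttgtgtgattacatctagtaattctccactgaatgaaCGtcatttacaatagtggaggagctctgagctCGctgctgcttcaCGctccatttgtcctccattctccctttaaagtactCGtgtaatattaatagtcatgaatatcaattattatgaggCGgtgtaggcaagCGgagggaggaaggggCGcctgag

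These 300-base sequences held 38 CpGs at Onecut1, 17 at Hand2 and 8 at Tfap2b. The sequences of the 2 annotated starts of Tfap2a held 11 and 15. The median over the 32851 sequences of the table was 7, and 4.95% of them had at least as many as Onecut1, 31.4% as many as Hand2 and 48.6% as many as Tfap2b. Starts on chromosome 18, where Onecut2 lies, were left out before matching, and the rest of the table matched 4 of the 7 genes. The median and the shares over all sequences kept that chromosome. With so few genes, no relation between CpG number and peaks can be read from these values.

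All 7 intervals had more of their length under peaks in the shDnmt3L library than in the shGFP library. The summed covered length was 237.7 kb in shDnmt3L and 83.96 kb in shGFP, a ratio of 2.83, whereas the whole lists differed by a ratio of 1.05. In shares, 24.8% of the intervals was covered in shDnmt3L and 8.75% in shGFP. In flanks as long as the interval on each side, 6.44% was covered in shDnmt3L and 6.80% in shGFP, a ratio of 0.947. In sum, the flanks thus had no such excess. Gene by gene, they had more in shDnmt3L at Hand2 and Tfap2b and less at the other genes, most of all at Tfap2a. The intervals were placed around such peaks, so the contrast with the flanks describes the choice.

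**Figure D1:**
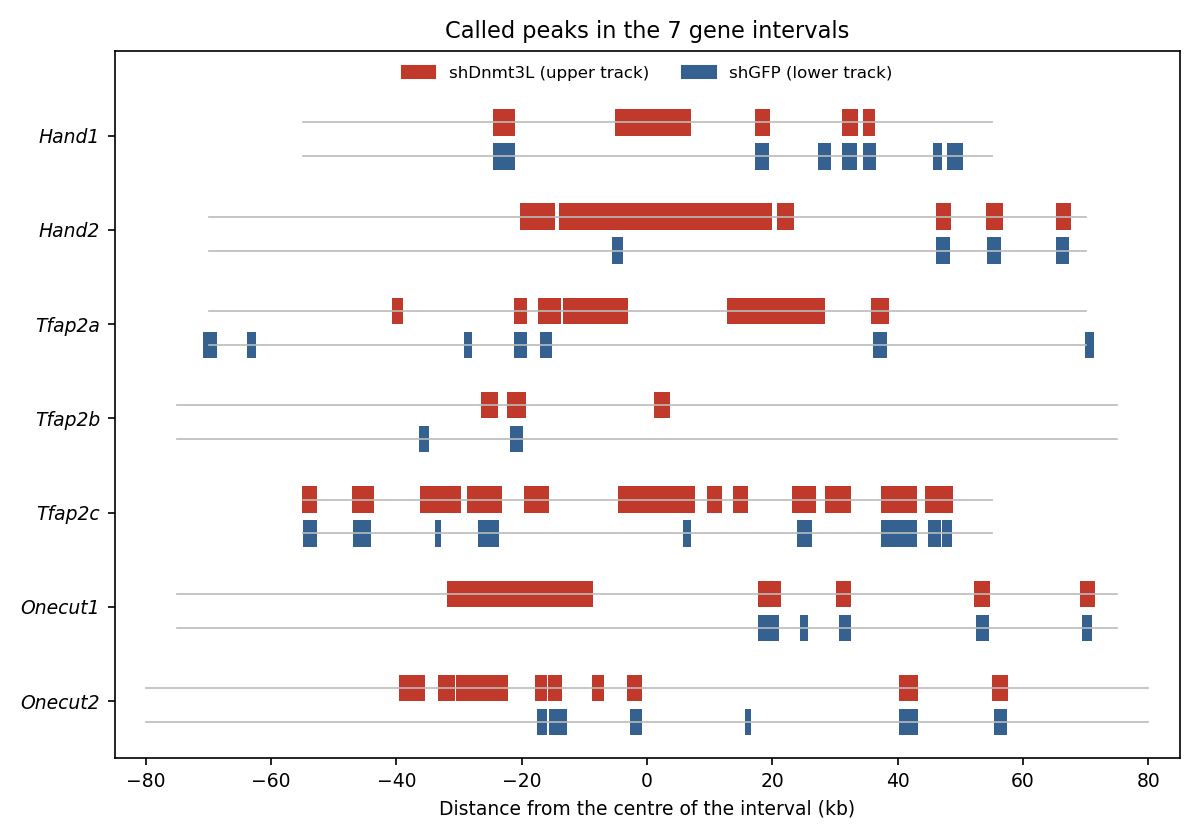
Positions of all called peaks in the 7 intervals, as distance from the centre of the interval in kb. The upper red track of each gene is shDnmt3L and the lower blue track shGFP, grey lines show the extent of the interval, and peaks that cross a border are drawn whole. Red blocks of 8222 bp or more with no blue block under them stand at Hand1, Tfap2a, Tfap2c, Onecut1 and Onecut2, and one with a single narrow blue block at Hand2, whereas most narrow peaks occur in both tracks.

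To say how common such differences are, covered length was compared over the genome in 140 kb windows, about the mean size of the intervals, as the log2 of the shDnmt3L over the shGFP length with 1 kb added to both. A difference was counted from 2-fold on, in windows with at least 5 kb covered in either library. Of 7425 windows, 421 (5.67%) were at least 2-fold higher in shDnmt3L and 249 (3.35%) at least 2-fold lower. Of the 7 intervals, 6 were at least 2-fold higher and 0 were lower. The median log2 ratio was 1.30 over the intervals and 0.03 over the windows. The intervals were picked for such peaks and placed around them, so this count describes the choice.

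The intervals spread widely within that range. Hand2 had the highest log2 ratio, 2.44, which 59 windows reached or exceeded. It was followed by Tfap2a at 1.71, Onecut1 at 1.64, Tfap2c at 1.30, Onecut2 at 1.17 and Tfap2b at 1.01. Tfap2b lay just above the 2-fold line and was below it, at 0.95, when each length was taken as a share of its whole list. Hand1, at 0.46, was the only interval under 2-fold, and 17.5% of all windows had a ratio as high. When the intervals were widened by 50 kb at each end, the log2 ratio of Tfap2a was 1.06 and that of Hand2 1.85, and Onecut2, at 0.97, joined Hand1 below 2-fold. When peaks scoring below 100 were dropped, the log2 ratio was 1.47 at Hand1 and 3.24 at Tfap2b, and all 7 genes were at 2-fold or more.

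**Figure D2:**
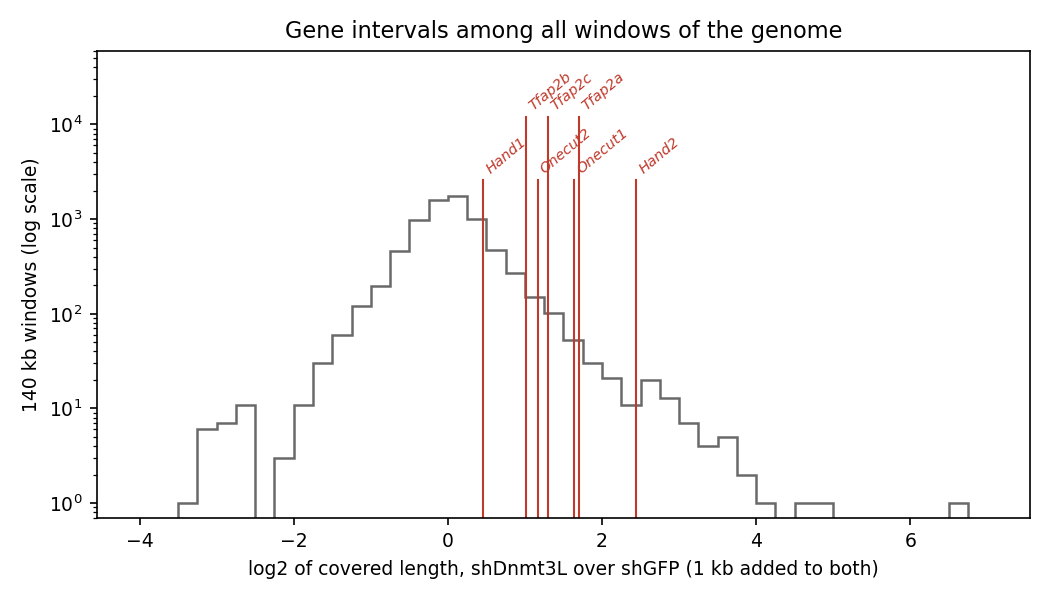
Number of 140 kb windows (log scale) by the log2 ratio of covered length, shDnmt3L over shGFP, with 1 kb added to both. The grey line is the distribution over 7425 windows, and red lines mark the 7 gene intervals, from Hand1 at 0.46 to Hand2 at 2.44, against a window median of 0.03.

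The Hand2 interval, on chromosome 8 from 59.74 to 59.88 Mb, held the widest peak of all members. A single shDnmt3L peak of 33.9 kb ran from 59795984 to 59829854, with a score of 2830 and rank 25 in its list, and only 4 shDnmt3L peaks in the genome were wider. Of this peak, 5.12% lay under a shGFP peak, which was 1735 bp wide and weak, at 86.5% of its own list counted from the highest score. The widest shGFP peak of the interval, from 59864199 to 59866541, was 2343 bp wide, and the one of highest score, from 59856102 to 59858351, ranked in the top 5.18% of the shGFP list. Further shDnmt3L peaks of 5691 and 2839 bp stood 628 and 811 bp away from the wide one, both without a shGFP peak, so that enrichment spanned 43.8 kb with only these gaps. The Hand2 gene is 3535 bp long in the GRCm38.p6 annotation, where its neighbour is the long noncoding RNA gene Hand2os1. The wide peak was thus longer than the gene, and which genes it covered was not determined.

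Outside that stretch, the same peaks were called at Hand2 in both libraries. The other 3 shDnmt3L peaks were 2435, 2689 and 2428 bp wide and matched shGFP peaks of 2250, 2343 and 2044 bp. Covered length was 49.95 kb in shDnmt3L and 8.37 kb in shGFP, and no shGFP base lay outside shDnmt3L peaks. The flanks also had more in shDnmt3L, 33.2 kb against 20.4 kb in shGFP. Among the 555 windows of chromosome 8, 19 (3.42%) were at least 2-fold higher in shDnmt3L.

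Hand1, on chromosome 11 from 57.59 to 57.70 Mb, had 5 shDnmt3L and 7 shGFP peaks, and 1 of the shDnmt3L peaks was wide. This peak, from 57639878 to 57652016, was 12.1 kb wide, scored 988 at rank 335, and had its nearest shGFP peak 10207 bp away. The Hand1 gene is 3435 bp long in GRCm38.p6, shorter than this peak. A shDnmt3L peak from 57620397 to 57623911 had exactly the same start and end as the widest shGFP peak, which was also the best of that library in score. In contrast, 3 shGFP peaks of 2121, 1408 and 2503 bp had no shDnmt3L peak. Covered length was 22.6 kb in shDnmt3L and 16.2 kb in shGFP, and without the widest peak of each library it was 10.5 kb in shDnmt3L and 12.7 kb in shGFP. The shGFP peak so left out was the one whose matching shDnmt3L peak was kept. The higher total at Hand1 therefore rested on the single wide peak.

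Among the AP-2 genes, Tfap2a had a pair of wide shDnmt3L peaks that touched no shGFP peak. Its interval on chromosome 13 runs from 40.74 to 40.88 Mb. The wider, from 40822748 to 40838359, measured 15.6 kb, scored 1152 and held rank 213, and the nearest shGFP peak was 7721 bp away. The other, from 40796620 to 40806929, measured 10.3 kb, with a score of 577 and rank 1179, and lay 1766 bp from a shGFP peak. Covered length was 36.2 kb in shDnmt3L and 10.4 kb in shGFP. A shDnmt3L peak of 2790 bp lay over the whole of the best shGFP peak, which ran from 40846081 to 40848233, was 2153 bp wide and ranked in the top 5.21% of its list.

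Tfap2a also had the most shGFP peaks with no counterpart, 4 of 7, all 2263 bp or narrower. The widest shGFP peak, from 40739070 to 40741332, was one of them and crossed the border of the interval. Another of them, from 40879838 to 40881272, also crossed a border, so the count rests partly on where the borders were set. The flanks of Tfap2a were the opposite of the interval, with 4.98 kb covered in shDnmt3L and 15.3 kb in shGFP.

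Tfap2c, the AP-2 gene of germ cells and trophoblast, had the densest interval in both libraries. In the 110 kb on chromosome 2 from 172.32 to 172.43 Mb, 52.0% was covered by 14 shDnmt3L peaks and 20.5% by 9 shGFP peaks, or 57.2 kb in shDnmt3L and 22.6 kb in shGFP. The widest shDnmt3L peak ran from 172370328 to 172380685 and measured 10.4 kb, with a score of 625 and rank 998. It overlapped no shGFP peak but missed one by 112 bp. A shDnmt3L peak of 5776 bp lay over the widest and best shGFP peak, which ran from 172412278 to 172417989 and was 5712 bp wide.

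The difference at Tfap2c was spread over many peaks. Without the widest shDnmt3L peak, which overlapped no shGFP peak, 46.8 kb remained in shDnmt3L, against 22.6 kb under all shGFP peaks. Without its own widest peak shGFP had 16.9 kb, but the shDnmt3L partner of that peak is part of the 46.8 kb. All 9 shGFP peaks had a shDnmt3L partner, and 6 of the 14 shDnmt3L peaks had no shGFP partner. Shared peaks were also wider, as where shDnmt3L peaks of 4134 and 5615 bp lay over shGFP peaks of 945 and 3379 bp, in that order. In the flanks, 27.4 kb was covered in shDnmt3L and 33.5 kb in shGFP.

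Tfap2b had the fewest peaks, and none was wide. Its interval on chromosome 1 runs from 19.15 to 19.30 Mb, and in GRCm38.p6 the related gene Tfap2d lies close by. The shDnmt3L library had 3 peaks of 2757, 3025 and 2648 bp, and the shGFP library had 2 of 1537 and 2138 bp. The only shared pair was the widest and best of each library, from 19202651 to 19205675 in shDnmt3L, in the top 26.2% by score, and from 19203067 to 19205204 in shGFP, in the top 60.5%. Covered length was 8.43 kb in shDnmt3L and 3.68 kb in shGFP, a ratio of 2.29 and a difference of 4.76 kb. At Hand2 the ratio was 5.97 and the difference 41.6 kb.

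Onecut1, on chromosome 9 from 74.65 to 74.80 Mb, had the second widest member peak, and the strongest without any shGFP overlap. The shDnmt3L peak from 74693096 to 74716325 was 23.2 kb wide with a score of 1841 at rank 58, and the nearest shGFP peak was 26367 bp away. The nearest other shDnmt3L peaks were also 26367 bp away on one side and 105430 bp on the other, so this peak stood alone. The annotated Onecut1 gene is 27.7 kb long in GRCm38.p6. A shDnmt3L peak of 3606 bp shared its start with the widest shGFP peak, which ran from 74742693 to 74745981 and was 3289 bp wide. The best shGFP peak by score, from 74794385 to 74796055, ranked in the top 13.8% of its list.

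Apart from the wide peak, the libraries differed less at Onecut1. Without the wide peak, which overlapped no shGFP peak, 10.9 kb was covered in shDnmt3L, against 10.3 kb under all shGFP peaks. The 4 remaining shDnmt3L peaks all had a shGFP partner. Without its own widest peak shGFP had 6.99 kb, but the shDnmt3L partner of that peak, 3606 bp wide, is part of the 10.9 kb. With every peak included, the values were 34.2 kb in shDnmt3L and 10.3 kb in shGFP. The flanks were nearly empty in both, with 4.46 kb in shDnmt3L and 5.03 kb in shGFP.

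Onecut2 had the next widest shDnmt3L peak below 10 kb. In its interval, on chromosome 18 from 64.45 to 64.61 Mb, a shDnmt3L peak of 8222 bp from 64499561 to 64507782 scored 577 at rank 1172. Peaks of 2718 and 4121 bp preceded it, the first only 183 bp away, and these 3 covered 15.1 kb of a 17.4 kb stretch with 0 shGFP peaks. With peaks within 500 bp joined, Onecut2 would count among the genes with a peak of 10 kb or more. A shDnmt3L peak of 3054 bp had the same start as the widest and best shGFP peak, which ran from 64570205 to 64573220 and was 3016 bp wide. Covered length was 29.1 kb in shDnmt3L and 12.4 kb in shGFP, and the flanks had 29.4 kb in shDnmt3L and 32.1 kb in shGFP.

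**Figure D3:**
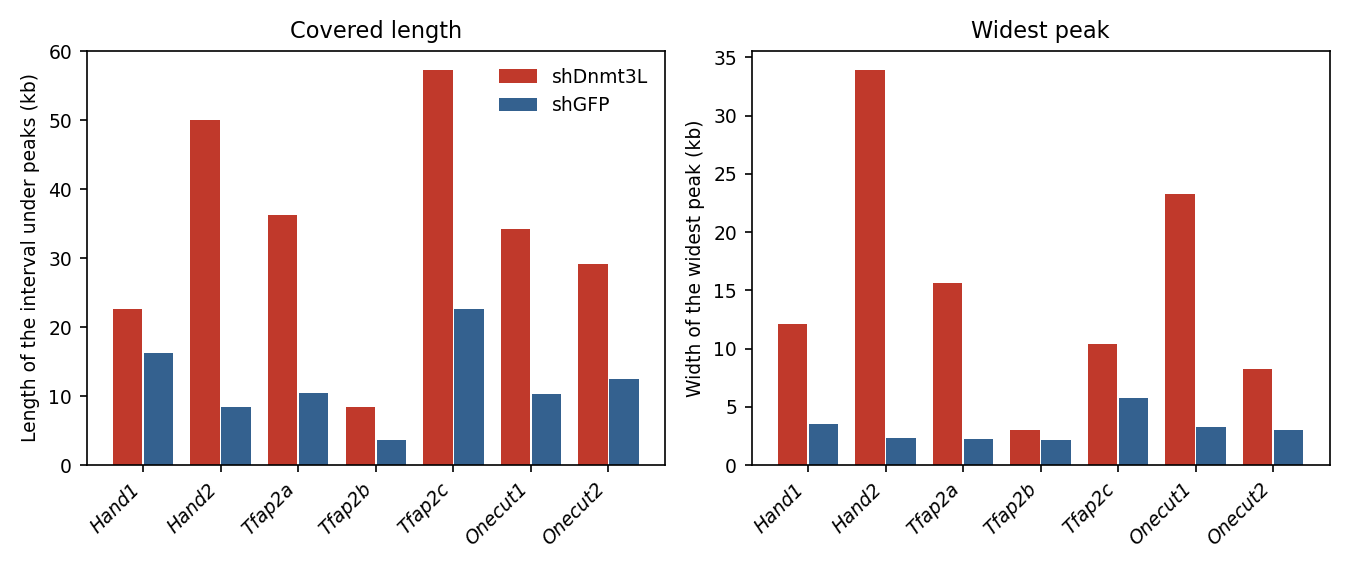
Covered length of the interval in kb (left) and width of the widest peak in kb (right) for each gene, with shDnmt3L in red left of shGFP in blue, 1 library each and no error bars. Covered length was higher in shDnmt3L at all 7 genes, and the widest peak measured 3025 to 33871 bp in shDnmt3L and 2138 to 5712 bp in shGFP.

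Wide peaks were a feature of the shDnmt3L library at these genes. In shDnmt3L, 6 peaks spread over 5 of the 7 intervals reached 10 kb, and 0 did in shGFP. Peaks of that width made up 0.535% of all shDnmt3L peaks and 0.0524% of all shGFP peaks. At 5 kb or more, there were 10 of 48 in shDnmt3L and 1 of 40, at Tfap2c, in shGFP. Over the whole lists, 5.18% of shDnmt3L peaks and 1.34% of shGFP peaks were that wide. Of the windows of the genome, 1.35% were touched by a shDnmt3L peak of 10 kb or more that had no shGFP peak, as 4 of the 7 intervals were. Hand2 was the exception among the 5, since a narrow shGFP peak lay under its wide peak. The ratio of the widest peaks, shDnmt3L over shGFP, went up to 14.5 at Hand2 and was 1.41 at Tfap2b.

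The wide peaks also had high score ranks, which were read only within each list. In shDnmt3L the best peak by score was the widest at all 7 genes, and it was in the top 1% of the list at 4 of them, Hand2, Onecut1, Tfap2a and Hand1, at 0.0548, 0.127, 0.467 and 0.735%. Tfap2c and Onecut2 followed at 2.19 and 2.57%. In shGFP the best peak was the widest at 4 genes and no peak was in the top 5%. The shGFP best ranks lay between 5.18% at Hand2 and 13.8% at Onecut1, apart from 60.5% at Tfap2b. Score and width thus went together in shDnmt3L and are not separate measures of these peaks. How often the best peak is also the widest elsewhere in the genome was not determined.

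**Figure D4:**
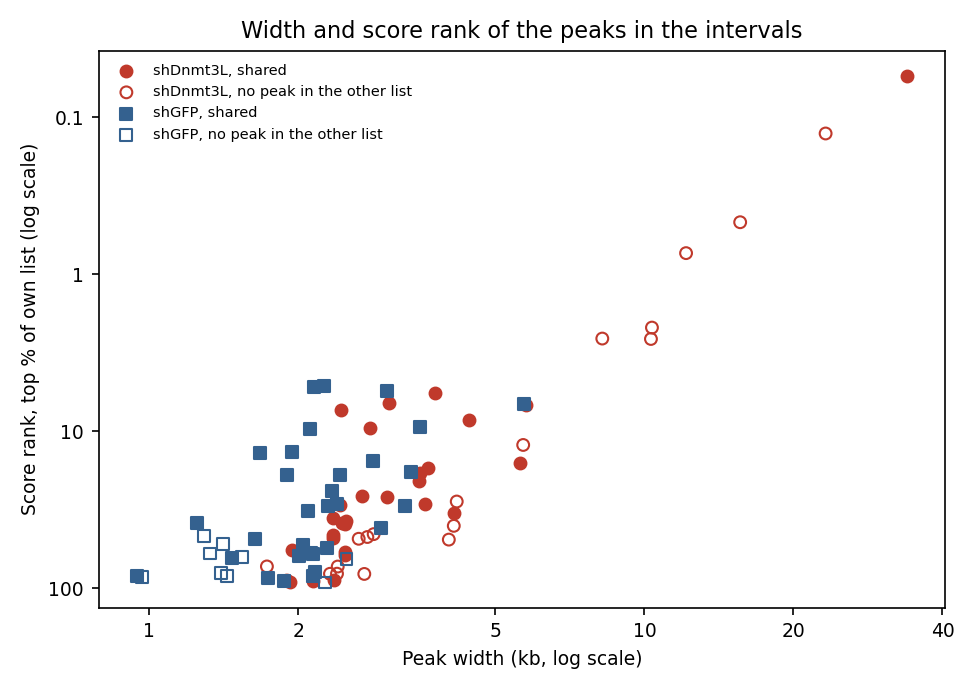
Width in kb (log scale) against score rank as top % of the peak's own list (log scale, strongest at the top) for the 48 shDnmt3L peaks (red circles) and 40 shGFP peaks (blue squares), with open symbols for peaks that have no peak in the other list. The red points above 8 kb form a tail of high rank without blue points, and 6 of these 7 are open.

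Sharing differed between the lists. No overlap with a shGFP peak, not even by 1 bp, was found for 19 of the 48 shDnmt3L peaks (39.6%, with a Wilson 95% interval from 27.0 to 53.7%), against 12.6% of the whole shDnmt3L list. Of the 40 shGFP peaks, 10 (25%, 14.2 to 40.2%) overlapped no shDnmt3L peak, against 25.5% of the whole shGFP list, so the share at these genes was close to that of the list. These Wilson intervals cover counting error only and treat neighbouring peaks as independent. The genes were chosen by their peaks in these same lists, so the higher shDnmt3L share describes the choice and was not tested. The 19 unshared shDnmt3L peaks were wider by median, 4027 bp against 2496 bp for shared ones, but their median score was lower, 107.9 against 151.2. Several of them were narrow, down to 1728 bp at Tfap2a. The width of unshared peaks over the whole list was not determined. The 10 unshared shGFP peaks were narrow, with a median of 1422 bp against 2147 bp for shared ones. Tfap2c had 6 of the unshared shDnmt3L peaks and Onecut2 had 4, while Hand1 and Onecut1 had 1 each.

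At these genes, the additional length in shDnmt3L lay mainly in peaks with no shGFP counterpart. Of 168.6 kb that only shDnmt3L peaks covered, 119.6 kb (70.9%) lay in unshared peaks and 49.0 kb in the wider parts of shared peaks. Hand2 was the main source of the second kind, with 33.1 kb, because its 33.9 kb peak counts as shared through the narrow shGFP peak under it. At Hand1, Onecut1, Tfap2a and Onecut2, unshared peaks made up 97.4, 92.2, 92.03 and 91.8% of that length. Conversely, shDnmt3L peaks lay over 82.3% of the shGFP covered length, from 58.2% at Tfap2b to 100% at Hand2 and Tfap2c. Only shGFP peaks covered 14.9 kb. How such lengths split over the whole lists was not determined.

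Most peaks present in both libraries were wider in shDnmt3L, at these genes as over the whole lists. Among 28 pairs that overlapped one to one in the intervals, 25 were wider in shDnmt3L, 2 had the same width and 1, at Onecut2, was narrower, with a difference of -585 bp. The differences went up to 32136 bp at Hand2, and at Tfap2c 3189 and 2236 bp were reached. The median difference was 395 bp, against 145 bp over all 37952 such pairs, of which 81.7% were wider in shDnmt3L. Without the widest peak of each library in every interval, 131.3 kb remained covered in shDnmt3L and 62.6 kb in shGFP, a ratio of 2.10. With that setting 5 genes were at least 2-fold higher, and Hand1 and Onecut1 were below, with log2 ratios of -0.25 and 0.58. The peaks left out mostly lay at different places in the libraries. At Hand1, Hand2, Tfap2c, Onecut1 and Onecut2 the shGFP peak left out had a shDnmt3L partner that was kept, which raised the ratio. The ratio with matched peaks left out was not determined.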

How the data were processed

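Genomic DNA of 2 cultures was sonicated, enriched and sequenced, per the labels' protocols. The authors deposited 1 peak list per library, each peak with a position and a score. The deposited scores start at 50 in shDnmt3L and 50.01 in shGFP, and what they stand for is not recorded. Per the submitters' processing notes, CASAVA 1.8, Bowtie 0.12.7, MACS 1.4.1 and mm9 were used, with no roles given. Input control, duplicate treatment, read depth and any normalization between the libraries are not stated.

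Peaks touching each interval were taken, and covered length was clipped to it. Rank is the mean rank of tied scores within a list. Python 3.11.15, numpy 2.4.6, pandas 2.3.3, scipy 1.17.1 and matplotlib 3.10.9 were used, and the interval code was checked on simulated data. The members, intervals and measures were chosen with earlier results of these data known. All 7 genes are named, with the widest and the best-scoring peak of each list and every shDnmt3L peak of 10 kb or more. Family members and partners outside the intervals were not placed, since no mm9 annotation was used.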

Additional observations from a re-analysis of the deposited data

How the results depend on the processing

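The count of genes at least 2-fold higher in shDnmt3L, 6 of 7, was 5 to 7 under the 15 alternatives, among them each gene left out in turn, and the log2 ratio of summed covered length, 1.502, was 1.07 to 2.04. It was 1.07 without the widest peak of each list, a setting added after the data were seen, as was that of peaks wholly inside the interval (1.51). Most shGFP peaks left out as the widest had a shDnmt3L partner that was kept, which raised the value of 1.07. Without Hand2 the log2 ratio was 1.31. Unshared shDnmt3L peaks, 19, numbered 15 to 23. Unshared shGFP peaks, 10, were 2 at scores of 100 or more and 5 with intervals narrowed by 20 kb. Genes with a shDnmt3L peak of 10 kb or more, 5, were 4, without Tfap2c, when the shDnmt3L minimum was scaled up by the lists' median widths, and 6, with Onecut2, at 5 kb. At 5 kb, 1 gene had such a shGFP peak, against 0 at 10 kb. At 3-fold, 2.02% of the windows were higher in shDnmt3L, and 3 genes. Per gene, 44 of 56 covered length ratios stayed within 1.5-fold of their value, 11 moved further and 1 changed sign, that of Hand1, whose log2 ratio was -0.25 without the widest peak of each list. What caused the shifts was not tested. No paired analysis was possible because there is 1 library a group. The unknown depth limits what can be said of weak and narrow peaks.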
